A study of Bos taurus with 3 samples.

Results

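Argonaute contacts on transcripts of the neuronal cytoskeleton were examined in 5 genes of the bovine retina: MAP1B, MAP2, KIF1B, ACTG1 and DPYSL3. Every listed site that carries the name of one of these genes was taken, on either strand, which gave 14 of the 402 sites in the series and 5 of its 280 named genes. The measurement was Argonaute HITS-CLIP, in which RNA is crosslinked to its bound proteins with ultraviolet light and the fragments that come down with Argonaute are sequenced. The retinas were dissected from cattle of mixed strain and broken up into clusters of cells before crosslinking. The 3 samples are replicates 1, 2 and 3 of a single untreated group, and there was no control sample. The labels do not say whether the replicates came from separate animals, so the spread between them may be technical.

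Argonaute proteins carry microRNAs (miRNAs), which pair with mRNAs, mostly in their 3' untranslated regions (3' UTRs), and lower their stability or translation. Neurons hold their axons and dendrites in shape with microtubules, which microtubule-associated proteins bind and stabilise, and with an actin network beneath the membrane. Kinesin motors move cargo along the microtubules towards the axon terminal. In the retina, ganglion cell axons form the optic nerve, and photoreceptors and interneurons carry shorter processes. The files assign no miRNA to a site, and no base sequence of the sites was used here, so the sites are given by position.

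Of the 5 genes, MAP1B had the most sites, 7, and the tallest one. DPYSL3 had 3 sites, MAP2 had 2, and KIF1B and ACTG1 had 1 each. Among the 280 named genes, 230 carried a single site, 18 carried 3 or more, and MAP1B and the rod arrestin gene SAG, with 7 each, carried the most. Each site is a peak found in all 3 replicates, and its height is the mean of its tags (sequenced RNA fragments counted in the peak) over the replicates, without scaling. No source used here says whether duplicate tags, those starting at the same base, were collapsed. No peak in the series held more tags than its length in nt minus 19, so a tag count may be limited by the length of its peak. Averaged over replicates, the 14 sites reached 11.4% to 35.5% of that limit. Single peaks came closer to it, with 66.7% at DPYSL3 site 3 in replicate 3 and 45.3% at the KIF1B site in replicate 1. The listed sites together held 6421, 5779 and 4114 tags in replicates 1, 2 and 3. These sums are not the depth of the libraries, which is unknown here. The 14 sites held 288, 209 and 151 of these tags in the same order. That is 4.49%, 3.62% and 3.67% of the listed tags, from 3.48% of the sites. Sites are numbered from the 5' end of each gene, and positions are those of the authors' tables, which do not name a genome build.

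**Figure D1:**
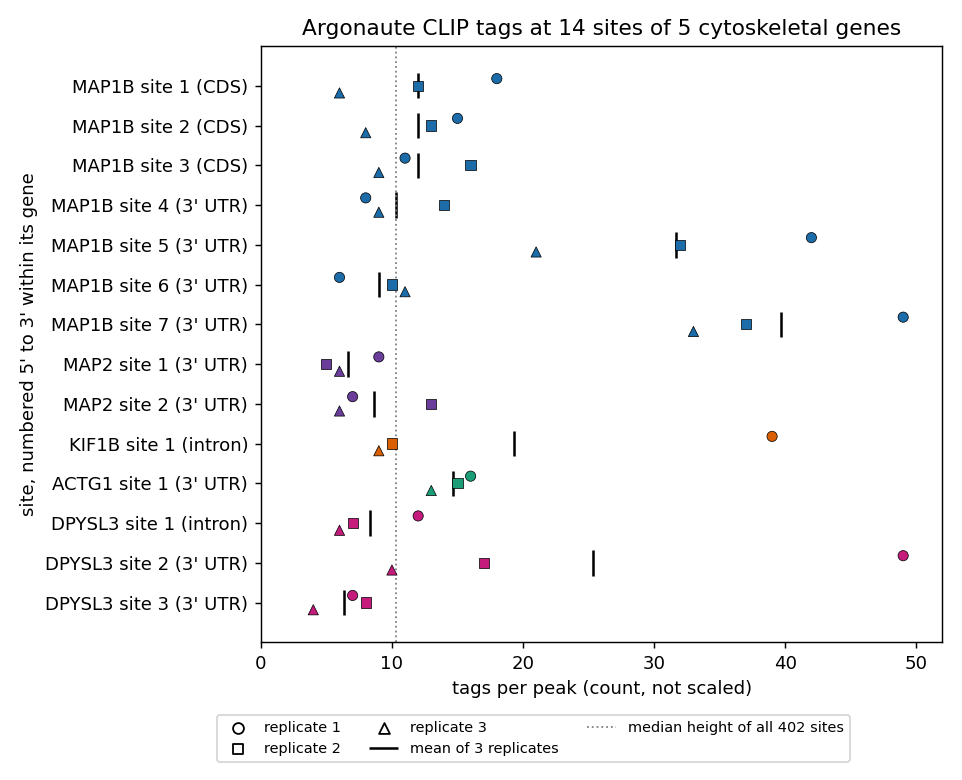
Tags in each replicate (x axis, count without scaling) at each of the 14 sites (y axis, numbered 5' to 3' within a gene); vertical ticks are means of the 3 replicates and the dotted line is the median height of all 402 sites, 10.3 tags. MAP1B sites 5 and 7 lie above 20 tags in every replicate, while KIF1B and DPYSL3 site 2 have 1 replicate, replicate 1, far to the right of the other two.

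MAP1B encodes a microtubule-associated protein of axons and growing neurites. Its tallest site, site 7, lay in the 3' UTR on chromosome 20 (10101390 to 10101558, minus strand) and had 49, 37 and 33 tags in replicates 1, 2 and 3, a mean of 39.7 ± 8.33 (SD, n = 3). It ranked 10 among the 402 sites and 4 among the 223 sites in 3' UTRs, and among all sites it ranked 5 by the pile-up of tags at the summit and 16 by tags per 100 nt. Site 5, also in the 3' UTR (10104868 to 10105002), had 42, 32 and 21 tags, a mean of 31.7 ± 10.5 (SD, n = 3), and ranked 20 among all sites. By summit pile-up it ranked 9, and by tags per 100 nt 21. All 3 replicates of both sites lay above every replicate of the other 5 MAP1B sites, whose highest value was 18 tags.

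Those other MAP1B sites were close to the median height of all 402 sites, 10.3 tags. In the 3' UTR, site 4 (10105285 to 10105458) had 8, 14 and 9 tags and site 6 (10103945 to 10104063) had 6, 10 and 11. Site 6 was the only MAP1B site with its highest count in replicate 3. The coding sequence held the other 3: site 1 (10116102 to 10116258) with 18, 12 and 6 tags, site 2 (10112658 to 10112745) with 15, 13 and 8, and site 3 (10111238 to 10111327) with 11, 16 and 9. Each coding site had a mean of 12 tags and ranked 18 among the 81 coding sites, against a median of 9 tags over the 81. The ranges of the 3 coding sites overlapped, so their heights are not separated by these replicates.

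Summed over its 7 sites MAP1B had 149, 134 and 97 tags, a mean of 127 ± 26.8 (SD, n = 3). This placed it at rank 2 of the 280 named genes. The ranking leaves out 32 of the 402 sites, which carry no gene name. The tallest site of the series, with a mean of 153 tags, is among those 32. The share of MAP1B in the listed tags was nearly the same in each replicate, at 2.32%, 2.32% and 2.36%. The homolog of mouse 2900097C17Rik, a non-coding transcript, came just above it with 145 ± 70.3 tags (SD, n = 3). Just below it came MALAT1, a nuclear non-coding RNA, with 126 ± 15.6, then GNAT1, the rod transducin alpha subunit, with 98.3 ± 28.7, and PDE6G, the inhibitory subunit of rod phosphodiesterase, with 85.7 ± 16.1 (SD, n = 3 each). Within each of the 3 replicates MAP1B had more tags than GNAT1 (108, 121 and 66) and PDE6G (79, 104 and 74). Against the 2900097C17Rik homolog (109, 226 and 100) and MALAT1 (110, 141 and 128) it had more in replicate 1 and fewer in replicates 2 and 3. SAG, with the same number of sites, had 76, 73 and 56 tags in all, each below the lowest MAP1B value, 97.

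The shares of the MAP1B sites are given here within the tags of its listed sites. Tags elsewhere on the transcript are not known. Sites 5 and 7 together held 56.1% ± 4.80 of these tags (SD, n = 3), with 61.1%, 51.5% and 55.7% in the 3 replicates. The 4 sites in the 3' UTR held 72.1% ± 3.71 of the tags and the 3 coding sites 27.9% ± 3.71 (SD, n = 3). Dividing a replicate by a scale leaves such shares unchanged. They may still depend on its depth, because a tag count may be limited by the length of its peak. Site 7 had 1.17, 1.16 and 1.57 times the tags of site 5, above 1 in all 3 replicates. Tags per 100 nt were closer, at 33.8, 31.9 and 22.6 for site 7 against 31.1, 31.7 and 21 for site 5. By summit pile-up site 7, with 19, 15 and 16, was lower than site 5, with 20, 16 and 11, in replicates 1 and 2. On the genome the summit of site 4 lay 418 nt upstream of that of site 5, site 6 followed 897 nt downstream of site 5, and site 7 a further 2555 nt downstream. The coding sites lay 5956 nt or more upstream of site 4, and the whole set spanned 14683 nt between its outermost summits.

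**Figure D2:**
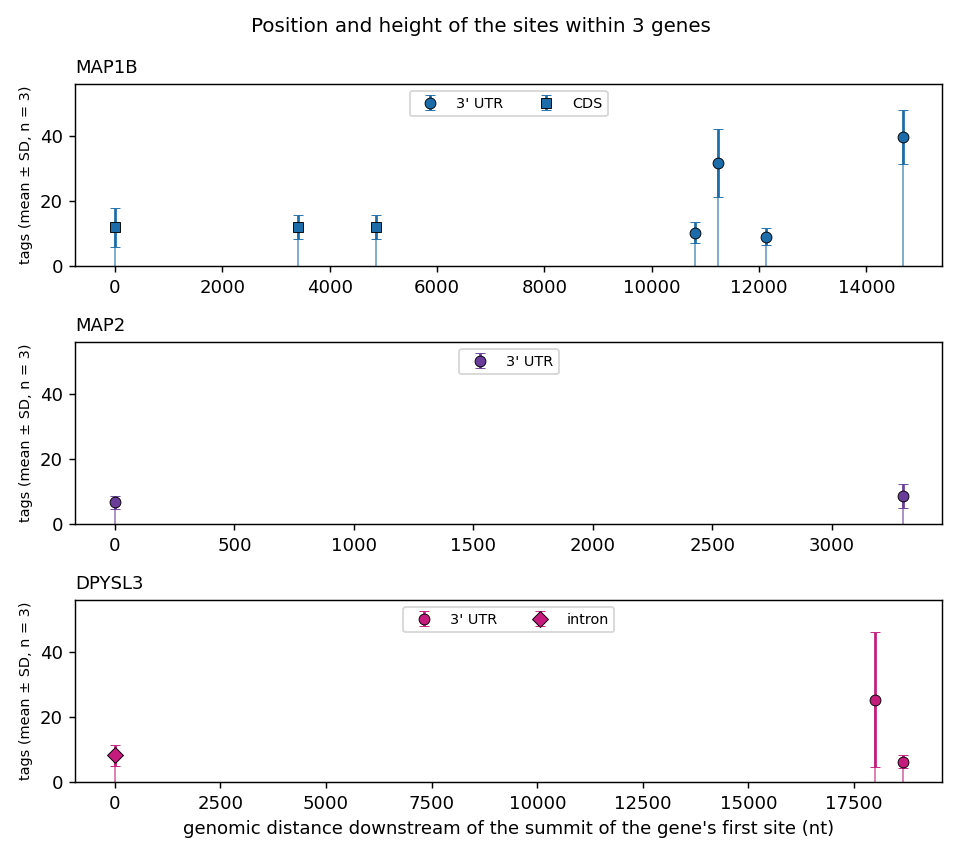
Height of each site (y axis, tags as mean ± SD, n = 3) against the genomic distance of its summit from that of the gene's site 1 (x axis, nt, in the direction of transcription) in MAP1B, MAP2 and DPYSL3; marker shapes give the authors' location class. In MAP1B the 2 tall sites stand in the 3' UTR among lower neighbours, MAP2 has low sites 3298 nt apart, and in DPYSL3 the tall site has the widest error bar.

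MAP2 encodes the microtubule-associated protein of dendrites and neuronal cell bodies, and its sites were among the lower ones. Both lay in the 3' UTR on chromosome 2, plus strand. Site 2 (101874510 to 101874626) had 7, 13 and 6 tags, a mean of 8.67 ± 3.79 (SD, n = 3), and ranked 252 of 402, or 384 by tags per 100 nt. Site 1 (101871276 to 101871380) had 9, 5 and 6 tags, a mean of 6.67 ± 2.08 (SD, n = 3), and ranked 341. The ranges of the 2 sites overlapped, and site 2 was the higher in replicate 2 only, lower in replicate 1 and equal in replicate 3. The lower limit of the list was near: the authors' −log10 p, multiplied by 10, was 204 for site 1 in replicate 2, and the lowest value of any listed peak was 200.02.

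KIF1B encodes a kinesin motor that carries mitochondria and synaptic vesicle precursors along axons. Its 1 site lay in an intron on chromosome 16 (40149955 to 40150059, minus strand) and had 39, 10 and 9 tags, a mean of 19.3 ± 17 (SD, n = 3). It ranked 58 among all sites and 4 among the 34 intron sites, whose median height was 7.83 tags. That rank rested on replicate 1: the site ranked 21 there, and 201 and 127 in replicates 2 and 3. Without replicate 1 its mean was 9.50 tags.

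ACTG1 encodes cytoplasmic gamma actin, a component of the actin network of all cells, and had 1 site. It lay in the 3' UTR on chromosome 19 (52344816 to 52344958, plus strand), with 16, 15 and 13 tags, a mean of 14.7 ± 1.53 (SD, n = 3) and rank 97. The 3 counts lay close together, and after scaling by the median ratio they were 13.1, 14.1 and 16.8. The rank depended on the measure, at 228 by summit pile-up and 303 by tags per 100 nt. In the NCBI RefSeq table of assembly ARS-UCD2.0 the ACTG1 gene overlaps the miRNA gene MIR3533, and the KIF1B gene overlaps a pseudogene. The builds may differ, so whether either site lies in the overlap was not tested. MAP1B, MAP2 and DPYSL3 overlapped no other gene there.

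DPYSL3 encodes a growth cone protein of the collapsin response mediator family, which binds tubulin and actin filaments during axon outgrowth. Its tallest site, site 2, lay in the 3' UTR on chromosome 7 (59068569 to 59068791, plus strand) and had 49, 17 and 10 tags, a mean of 25.3 ± 20.8 (SD, n = 3) and rank 39, or 137 by tags per 100 nt. Replicate 1 equalled there the highest count of any of the 42 peaks of these genes, 49, which it shares with MAP1B site 7. The lower neighbour 664 nt downstream, site 3 (59069330 to 59069413), had 7, 8 and 4 tags, and the intron site 17996 nt upstream of site 2, site 1 (59050695 to 59050751), had 12, 7 and 6. Site 2 held 72.1%, 53.1% and 50% of the tags in the gene's listed sites in the 3 replicates and was the tallest of the 3 sites in each. Without replicate 1 its mean was 13.5 tags. The 4 tags of site 3 in replicate 3 were the fewest in any of the 42 peaks, and a count of 4 has an exact 95% Poisson interval of 1.09 to 10.2, which covers counting error only.

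**Figure D3:**
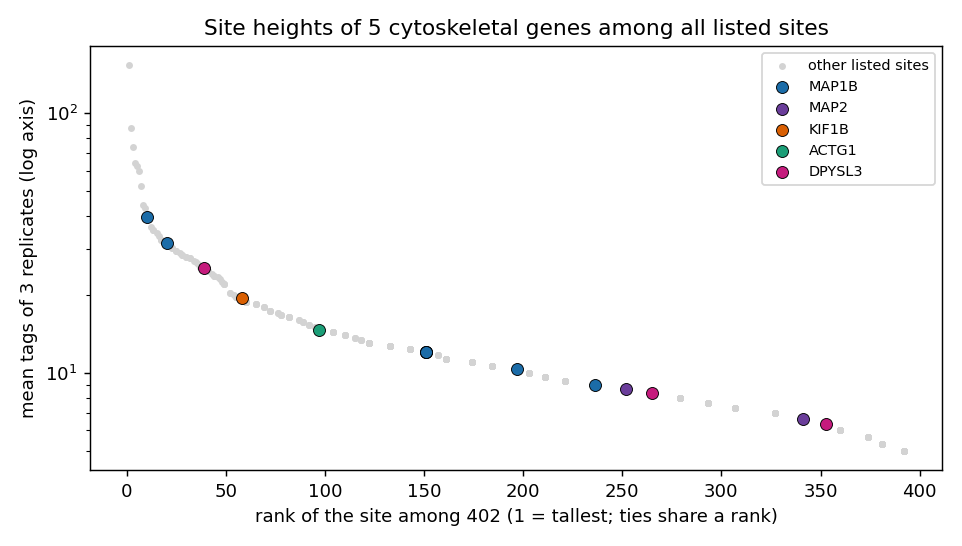
Mean tags of the 3 replicates (y axis, log scale) against rank (x axis, 1 is the tallest) for all 402 listed sites, with the sites of the 5 genes in colour; the 3 MAP1B coding sites share rank 151 and 1 point. MAP1B sites 7 and 5 are at ranks 10 and 20, and the sites of the 5 genes reach down to rank 353.

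The 14 sites had heights from 6.33 to 39.7 tags, against 5 to 153 over all 402 sites, and ranks from 10 to 353. Their median was 12 tags, against 10.3 over all 402 sites, and 8 of the 14 lay above that overall median. Their peaks had a median length of 85.2 nt, averaged over replicates, against 73.5 nt over all sites. The summits of the 3 replicates lay 4 to 25 nt apart, with a median of 10 nt against 9 nt over all sites, and the 3 peaks of a site shared 25 bases or more. By the authors' location class 9 of the 14 sites lay in 3' UTRs (64.3%, 95% Wilson interval 38.8 to 83.7), against 214 of the 388 other sites (55.2%, interval 50.2 to 60.0). Coding sequence held 3 (21.4%, interval 7.57 to 47.6) against 78 (20.1%), and introns 2 (14.3%, interval 4.01 to 39.9) against 32 (8.25%). The 388 other sites also include 31 without a location class, 30 in non-coding RNAs and 1 between genes. Sites chosen by the names of 5 protein-coding genes had little scope to fall in these classes. These classes lower the shares of the other sites in 3' UTRs, coding sequence and introns, so the 2 sets are not alike. Each interval of the 14 sites includes the share of the other sites, and sites of 1 gene share their transcript.

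At all 402 sites it was tested whether the tags in the 3 replicates differed by more than counting error, after each replicate was divided by its median ratio to the geometric mean of the 3. This spread passed the test at 2 of the 14 sites (two-sided exact multinomial test, Benjamini-Hochberg adjustment over the 402), where the share over all sites was 4.98%. They were DPYSL3 site 2 (exact multinomial test, adjusted p = 0.00327) and the KIF1B site (exact multinomial test, adjusted p = 0.00472). After scaling DPYSL3 site 2 stood at 40.3, 16 and 12.9 tags and the KIF1B site at 32, 9.42 and 11.6, so that replicate 1 was the highest in both. The other 12 sites had adjusted p from 0.503 to 0.998 (exact multinomial test), MAP1B site 6 having the lowest. Scaled by the steps of the fold enrichment, which differ between the replicates, the KIF1B site no longer passed (exact multinomial test, adjusted p = 0.0657) and DPYSL3 site 2 passed narrowly (adjusted p = 0.0469), with 5.97% of all sites called. Without replicate 1 neither passed (exact binomial test, adjusted p = 1 for both), and without replicate 2 the KIF1B site did not (exact binomial test, adjusted p = 0.0784).

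The peaks of these 2 sites also differed in extent. The KIF1B peak was 105, 55 and 46 nt long in replicates 1, 2 and 3, and that of DPYSL3 site 2 was 223, 76 and 130 nt. Replicate 1 thus had both the longest peak and the most tags at each. The pile-up of tags at the summit, which does not add up over a peak's length, was 14, 7 and 6 at the KIF1B site and 20, 8 and 5 at DPYSL3 site 2. It was highest in replicate 1 at both, and 20 is the highest pile-up of any peak in the series, reached by 10 of 1206 peaks. The replicate 1 peak of MAP1B site 5 was another of the 10. Tested in place of the tags, the pile-ups passed at none of the 402 sites (0.00%, exact multinomial test), and 6 of the 402 had an unadjusted p under 0.05. DPYSL3 site 2 was one of these 6 (exact multinomial test, unadjusted p = 0.0334, adjusted p = 1). Pile-ups are smaller counts than tags, so the test of them had less power. That no site passed does not show an even spread at the summit. Whether 20 is an upper limit of the pile-up was not tested. The part of peak length in the spread of tags was not tested further.

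**Figure D4:**
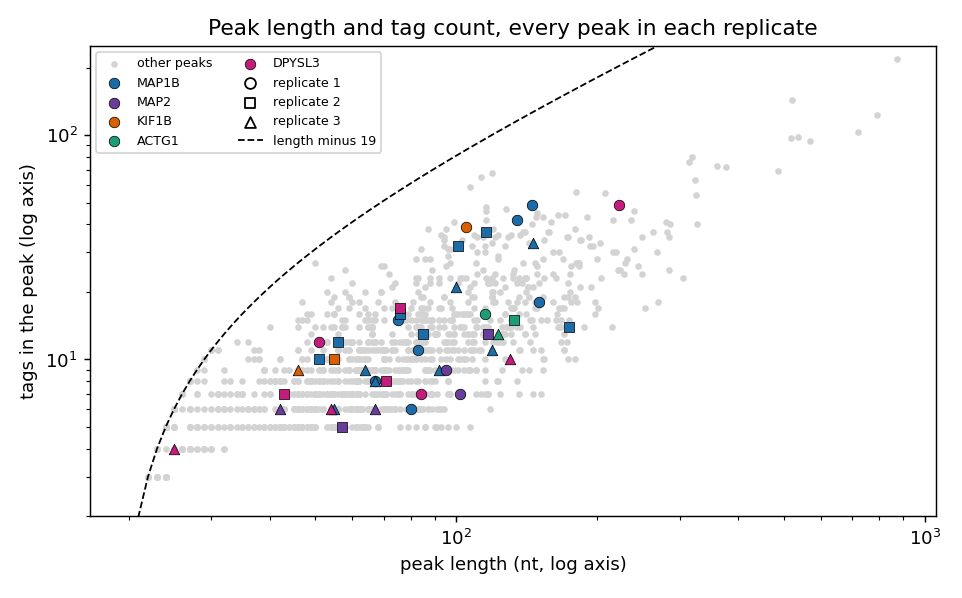
Tags in a peak (y axis, log scale) against its length (x axis, nt, log scale) for every peak of every replicate, with the 42 peaks of the 5 genes in colour and the replicate as marker shape; the dashed line is the length minus 19, which no peak exceeded. The replicate 1 peaks of KIF1B and DPYSL3 site 2 lie to the upper right of those of replicates 2 and 3.

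The scale of the replicates also set where a site was highest. Of the 14 sites, 9 had the most tags in replicate 1, 4 in replicate 2 and 1 in replicate 3, against 225, 118 and 28 of all 402 sites, with 31 tied. After scaling by the median ratio these numbers were 6, 4 and 4 of the 14, against 148, 110 and 144 of all sites. By the authors' fold enrichment they were 2, 3 and 9 of the 14, against 53, 63 and 286. The fold enrichment of MAP1B site 7, over a background the file headers do not describe, was 31471, 33863 and 63121 in the 3 replicates, and that of the KIF1B site 23189, 15803 and 23670.

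The genes whose tallest sites were most like those of the 5, by the Euclidean distance of log2 tags over the 3 replicates, were of varied function. Nearest to MAP1B were CMTM4 (48, 42 and 43 tags, distance 0.42) and RGS9BP, a membrane anchor for the regulator of rod transducin (47, 36 and 23, distance 0.53). Nearest to KIF1B were NF1, a regulator of Ras (35, 12 and 9 tags, distance 0.31), and SSR1, of the protein translocation channel (30, 10 and 9, distance 0.38). Nearest to DPYSL3 were SLC25A36, a mitochondrial nucleotide carrier (38, 18 and 10 tags, distance 0.38), and KIAA1715 (32, 14 and 9, distance 0.69). These 4 sites had their highest count in replicate 1, which follows from their choice by likeness of counts. Their longest peak was in replicate 1 as well. A longer peak can hold more tags, so this is no separate support for a pattern of replicate 1. None of the 4 passed the test of spread (exact multinomial test, adjusted p from 0.0639 to 0.218). ACTG1 was nearest to PCM1, a centriolar satellite protein (16, 15 and 12 tags, distance 0.12), and MRPS10 (16, 15 and 11, distance 0.24), and MAP2 to TMEM170B (7, 14 and 5, distance 0.28) and ETNK1 (8, 11 and 6, distance 0.31). With 3 replicates such distances describe the counts only.

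The wider pathway was followed through 4 lists of 106 genes of microtubules, motors, the actin and membrane skeleton, and growth cones, of which 12 carried a site. Leaving out the 5 genes above, which were chosen among genes known to have sites, 7 of the other 101 did (6.93%, 95% Wilson interval 3.40 to 13.6), where the share over all protein-coding genes of the RefSeq table was 1.10%. The lists were also chosen with earlier results of these data known. These shares therefore do not test whether genes of the pathway are listed more often than others. The levels of the mRNAs were not measured, and genes with much mRNA in the retina may be listed more often. In bulk tissue fewer cells of a type and less RNA per cell cannot be told apart. The median height of the tallest sites of these 7 genes was 8.67 tags, against 10.3 over the 280 named genes.

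Among microtubule genes 4 of 30 carried a site. Besides MAP1B and MAP2 these were CLASP2, which stabilises growing microtubule ends (3' UTR, 11, 11 and 6 tags), and CAMSAP1, which binds their minus ends (3' UTR, 11, 10 and 5). No tubulin, stathmin or tau (MAPT) gene was listed. Of 27 motor genes 2 carried a site, KIF1B and DYNLL2, a dynein light chain, whose coding site on chromosome 19 (8109218 to 8109304) was the tallest of the 7 genes with 18, 13 and 9 tags. Of 27 actin and membrane skeleton genes 3 did, ACTG1, WASF3, which activates actin branching (3' UTR, 14, 11 and 6 tags), and ANK2, an ankyrin that ties membrane proteins to spectrin (coding sequence, 10, 9 and 5). Of 22 growth cone, neurofilament and axon growth genes 3 did, DPYSL3, its relative DPYSL2 (intron, 6, 5 and 7 tags) and L1CAM, an axonal adhesion molecule (3' UTR, 8, 8 and 9). Each of these 7 genes had 1 site, and none passed the test of spread (exact multinomial test, adjusted p from 0.921 to 0.998). ACTB and the neurofilament genes NEFL, NEFM and NEFH were not listed, which does not show that they were unbound, since only peaks above a threshold of the authors were deposited as sites.

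Marker genes of cell types were looked up among the genes with a site. The lists were chosen with earlier results of these data known, so these counts do not check the tissue label. A marker without a listed site may still be expressed, since only Argonaute peaks above a threshold were listed. Of 18 rod and cone markers 13 carried a site, of 10 ganglion cell markers 1 did (UCHL1), and none of 39 markers of bipolar, amacrine and horizontal cells, Müller glia, pigment epithelium, blood, microglia and vessels did. The 5 genes are active in many kinds of neuron, and the files do not say in which retinal cells their sites were bound.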

How the data were processed

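Argonaute HITS-CLIP was measured in 3 samples of bovine retina. CASAVA 1.8.1 and GSNAP were used in unstated roles, per the submitters' processing notes; no source used here gives the peak caller, the genome build or how duplicate tags were treated. Tags are a whole count for each peak and replicate, per the file headers. The authors also deposited a score for each peak, −log10 p multiplied by 10, and a fold enrichment, which is a ratio. Columns were matched to samples by the replicate named in the headers.

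The fold enrichments were whole multiples of 1 step per replicate and strand, and the multiple was taken as the summit pile-up. Scale factors were medians, over sites, of the ratio to the geometric mean of the replicates, at 1.22, 1.06 and 0.774 for replicates 1, 2 and 3. The test of spread was an exact multinomial test, Benjamini-Hochberg adjusted over 402 sites at 0.05. It was also run on simulated counts. These held only counting error besides the changes put in, so they do not show how the test behaves on the real data. Ranks, shares and lists are descriptions. Named were every site of the 5 genes, the other list members with a site, the 2 nearest genes per gene, and up to 3 genes on either side of MAP1B in summed tags. The genes and lists were chosen with earlier results of these data known. Python 3.11.15 was used with numpy 2.4.6 and pandas 2.3.3, tests came from scipy 1.17.1 and plots from matplotlib 3.10.9. Intervals cover counting error only.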

Additional observations from a re-analysis of the deposited data

How the results depend on the processing

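No paired analysis was possible because the series holds 1 group. The heights of the 14 sites moved by less than 1 SD when tags were scaled by the median ratio. With 3 replicates a mean cannot move by 1 SD when 1 is left out, so that says nothing about stability. Without replicate 1 the height of the KIF1B site was 9.5 tags in place of 19.3, and that of DPYSL3 site 2 was 13.5 in place of 25.3. Ranks depended on the measure of height: by summit pile-up MAP1B site 7 ranked 5 and ACTG1 228, and by tags per 100 nt MAP1B site 7 ranked 16, DPYSL3 site 2 137, ACTG1 303 and MAP2 site 2 384. Only sites above the median height left 8 of the 14 sites, with 1 in DPYSL3 and 0 in MAP2. The stricter p limit kept sites whose lowest −log10 p over replicates, multiplied by 10, passed the median of all sites, 283.66. It left the same numbers but not the same sites: MAP1B site 1 was kept by height only and site 4 by p only. The share of member sites in 3' UTRs was 50% by height and 62.5% by p, against 64.3% of all 14. Merging sites within 100 or 1000 nt, or requiring peaks to share at least 50% of the shortest, kept each count within 1.5 times, the lowest for MAP1B being 5 with 1000 nt.

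The test of spread called 20 of the 402 sites and 2 of the 14. Leaving out a replicate gave 6 to 12 of the 402 and 0 to 2 of the 14 (exact binomial test), with adjusted p from 0.0145 to 1 for KIF1B and from 0.0156 to 1 for DPYSL3 site 2. The fold enrichment steps called 1 of the 14, with KIF1B at an adjusted p of 0.0657 (exact multinomial test). The summit pile-up, chosen after the data were seen, called 0 of the 402 and 0 of the 14, with an adjusted p of 1 for both sites (exact multinomial test), where 6 of the 402, DPYSL3 site 2 among them, had an unadjusted p under 0.05. Pile-ups are smaller counts than tags, so the test of them had less power. The causes of these differences were not tested.

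Of the 12 list genes with a site, 5 had one above the median height, 2 among motors and 1 each among microtubule, actin and growth cone genes. The plus strand alone held 5 of them, with 1 microtubule, 1 motor, 1 actin and 2 growth cone genes. The minus strand alone held 7, with 3 microtubule, 1 motor, 2 actin and 1 growth cone genes. Low counts limit every value: the 14 sites had medians of 13.5, 13 and 9 tags in replicates 1, 2 and 3.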
